A study of Mus musculus with 20 samples.

Results

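The comparison concerned the effect of an antibody against SIRPa on CD11c+CD11b- cells sorted from irradiated tumours, and rested on 4 of the 20 libraries of the series. Members were chosen by their labels: the 2 irradiated CD11c+CD11b- libraries that had received anti-SIRPa were set against the 2 that had not. C57BL/6 mice carried MC38-OVA tumours, which come from an ovalbumin-expressing colon carcinoma line. All 4 groups had received focal radiotherapy (RT) of 8 Gy on day 12, and tumours were taken on day 17. The groups without anti-SIRPa were RT alone and RT with anti-PD-1 (250 µg per dose). Those with it were RT with anti-SIRPa (400 µg per dose) and RT with both antibodies at these doses. The CD11c+CD11b- library from untreated tumours is given as a reference level and entered no test. Each group was 1 library from the pooled leukocytes of 10 tumours, 1 per mouse, so anti-PD-1 status and pool could not be replicated separately. The age and sex of the mice and any control antibody were not given in the sources used here.

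SIRPa is an inhibitory receptor of myeloid cells. When it binds CD47 on another cell, its tail recruits the phosphatases encoded by Ptpn6 and Ptpn11, and engulfment of that cell is restrained. Dendritic cells are the main cells that carry tumour antigen to T cells. The conventional subsets present antigen on MHC class I and class II, whereas plasmacytoid dendritic cells sense nucleic acids through TLR7 and TLR9, are known for type I interferon secretion, and carry little CD11b.

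Library totals of the 4 members ran from 22475552 to 26562046 counts, and the untreated library held 29981185. Levels are given as CPM, a gene's count relative to the total of its library, after TMM scaling over the 20 libraries, in the order RT, RT with anti-PD-1, RT with anti-SIRPa, and RT with both. A log2 fold change is with minus without anti-SIRPa, adjusted for anti-PD-1, with its approximate standard error (SE), from the quasi-likelihood test of edgeR. Its p-values carry a Benjamini-Hochberg adjustment over all genes and are called edgeR adjusted p. With 1 residual degree of freedom, these p-values measure the spread among these 4 pools, which includes any departure from additivity of the antibodies. A second tool, DESeq2, was run with the same model. Its Wald test uses the normal distribution and makes no allowance for the 1 residual degree of freedom, so its small adjusted p need caution. Mitochondrial genes made up 0.944 and 0.951% of counts without anti-SIRPa and 1.09 and 1.23% with it, and ribosomal RNA 1.17 and 1.09% against 1.44 and 0.929%.

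The labels call the fraction dendritic cells. Itgax, the gene of CD11c, stood at 350 and 393 CPM without anti-SIRPa and at 264 and 335 CPM with it, and Itgam, the gene of CD11b, at 118, 57.8, 75.0 and 66.5 CPM. In the CD11c-CD11b+ libraries of the same pools Itgam stood at 1040 to 1892 CPM, so the sort separated the fractions by transcript as well. The fraction was mixed, however. Over their lists, the NK cell markers summed to between 4640 and 5891 CPM, the cDC1 markers to between 2512 and 4833 CPM and the plasmacytoid markers to between 1474 and 3010 CPM in the 4 libraries. Il2rb, a receptor chain of NK and T cells, alone stood at 1773 to 2172 CPM, while Cd3e, a T cell receptor component, stood at 5.38 to 11.9 CPM. Krt8 and Krt19, keratins of epithelial cells, had 0 counts in all 4 libraries. The epithelial list of 9 genes summed to 120.5, 124.2, 69.1 and 76.9 CPM, nearly all from Cdh1, the E-cadherin gene that some dendritic cells also express, at 119.8, 123.4, 69.0 and 76.4 CPM. Because each value is a bulk average, fewer cells of a type and less RNA per cell cannot be told apart in anything that follows.

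Across 19130 genes, 1 (0.00523%) passed edgeR's adjusted p limit of 0.05. This was Gm20716, a predicted gene on chromosome 2 (168180986 to 168230364, GRCm38), named after its values were seen. It had 0 counts in both libraries without anti-SIRPa, 26.4 and 41.3 CPM with it and 11.4 CPM in the untreated library (edgeR adjusted p = 0.00794). DESeq2 did not call it (adjusted p = 0.0771). Its locus overlaps Adnp and Dpm1 on the same strand, so how reads were assigned among them leaves its count uncertain. At an unadjusted p under 0.05, 1123 genes were higher (5.87%) and 1235 lower (6.46%). DESeq2 with the same model gave an adjusted p for 10970 genes and called 64 of them higher (0.583%) and 212 lower (1.93%). The counts by edgeR were 0 when low genes were not filtered, when the anti-PD-1 term was dropped and when the 20 libraries were fitted together, and between 2 and 4 when 1 library was left out together with the anti-PD-1 term.

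No gene below other than Gm20716 passed edgeR's limit, so differences are given as values. As a second description, the text says how often both libraries with anti-SIRPa lay above or below both without it. By this count 2389 of all genes tested lay higher (12.5%) and 3003 lower (15.7%). The median log2 fold change of all genes was 0.03.

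Plasmacytoid dendritic cell genes were the group with the largest negative values among the cell type lists with at least 10 genes tested. The list held Siglech, Ccr9, Dntt, Snx22 and Enpp2, the markers given for this comparison, so its values are not independent of that choice. All 28 list members were tested, their median log2 fold change was -1.04, and 20 lay lower without overlap against 2 higher. DESeq2 called 12 lower and 1 higher of the 27 it could adjust. With the anti-PD-1 term kept, leaving out a library of 1 pair leaves the ratio of the other: the median was -1.18 for RT with anti-SIRPa over RT and -0.69 for both antibodies over RT with anti-PD-1. Siglech, a surface lectin that defines these cells in mice, stood at 173 CPM after RT and 231 CPM after RT with anti-PD-1. With anti-SIRPa it stood at 46.9 CPM, and at 124 CPM when both antibodies were given. Both libraries with anti-SIRPa were thus below both without it, and all 4 were above the untreated level of 10.9 CPM. The log2 fold change was -1.37 ± 0.21 (SE), with an edgeR adjusted p of 0.115 and a DESeq2 adjusted p of 0.0788.

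Ccr9, a chemokine receptor of plasmacytoid cells, had 165 and 236 CPM without anti-SIRPa against 48.1 and 128 CPM with it. Its log2 fold change was -1.31 ± 0.19 (edgeR adjusted p = 0.114, DESeq2 adjusted p = 8.61e-08). The untreated library had 9.69 CPM, and the order of the 5 libraries was that of Siglech. Dntt, the template-independent DNA polymerase of lymphoid precursors that plasmacytoid cells can also carry, stood at 29.2, 39.3, 7.22 and 18.2 CPM, with a log2 fold change of -1.54 ± 0.21. Snx22, a sorting nexin, stood at 32.7, 39.3, 12.4 and 21.9 CPM, with -1.10 ± 0.16. Among the irradiated libraries, for these 4 marker genes, the library with anti-SIRPa alone was lowest and the library with anti-PD-1 alone highest.

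**Figure D1:**
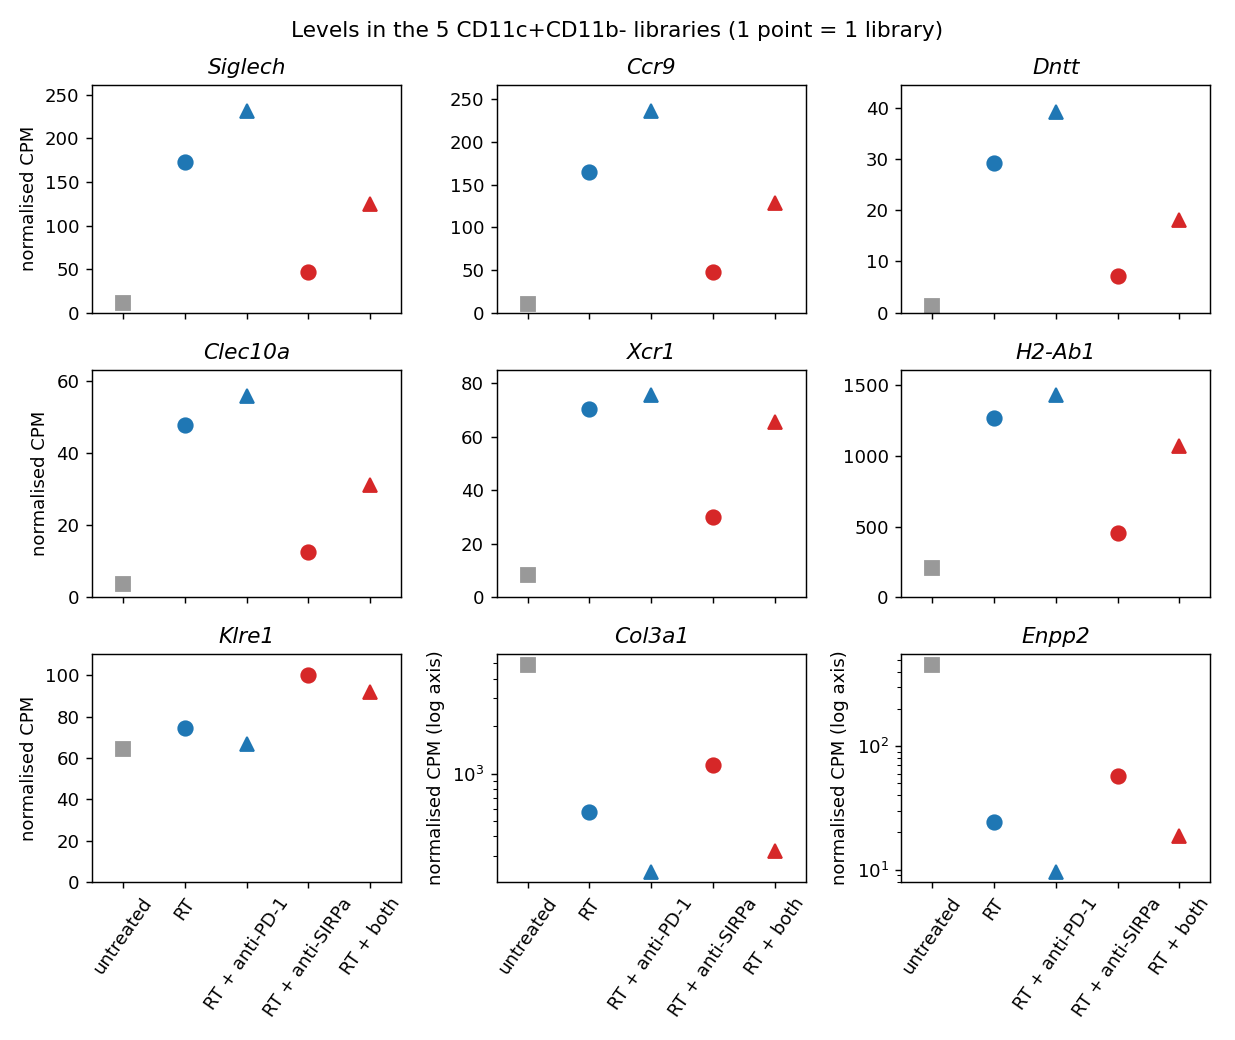
Normalised CPM (vertical axis) of 9 genes in the 5 CD11c+CD11b- libraries, 1 point per library, grey for untreated, blue without and red with anti-SIRPa, triangles with anti-PD-1. The bottom middle and right panels have a log axis. Siglech, Ccr9, Dntt, Clec10a, Xcr1 and H2-Ab1 were lowest among irradiated libraries in RT with anti-SIRPa, Klre1 was highest there, and Col3a1 and Enpp2 were highest in the untreated library.

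Promoter windows of Siglech and Ccr9 are shown because these surface markers were lower together and each window holds 1 E-box of the letters CAGGTG or its reverse complement CACCTG, in capitals. E-proteins, the transcription factors that set plasmacytoid identity, bind E-boxes. Both windows run from 250 bases before to 50 after the start, on the plus strand, and come from RefSeq (GRCm38.p6).
Siglech, chr7:55767934-55768233: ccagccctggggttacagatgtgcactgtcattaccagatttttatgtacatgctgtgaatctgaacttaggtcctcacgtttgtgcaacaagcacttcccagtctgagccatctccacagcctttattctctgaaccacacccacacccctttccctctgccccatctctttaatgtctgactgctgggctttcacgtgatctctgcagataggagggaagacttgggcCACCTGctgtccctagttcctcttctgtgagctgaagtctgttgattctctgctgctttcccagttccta
Ccr9, chr9:123766961-123767260: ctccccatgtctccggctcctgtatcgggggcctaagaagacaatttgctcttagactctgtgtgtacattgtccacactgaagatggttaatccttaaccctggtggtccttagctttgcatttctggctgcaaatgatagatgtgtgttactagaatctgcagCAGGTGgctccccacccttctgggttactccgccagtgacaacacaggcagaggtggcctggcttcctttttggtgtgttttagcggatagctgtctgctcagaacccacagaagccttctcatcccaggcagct
This E-box occurred in 20.2% of 32851 promoter windows and in those of 6 of the 22 list genes with a window, against 22.6% of all genes with one. A match describes the letters and shows no binding.

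Other members of the list had values of differing size. Pacsin1, a membrane-bending protein, stood at 44.9 and 61.5 CPM without anti-SIRPa and at 12.5 and 32.0 CPM with it (log2 fold change -1.37 ± 0.20). Pltp, the phospholipid transfer protein, had 114 and 151 CPM against 35.0 and 73.6 CPM, with -1.36 ± 0.15. Klk1, a kallikrein protease, had 57.6 and 81.5 CPM against 15.7 and 47.5 CPM, with -1.30 ± 0.23. In all 3 both libraries with anti-SIRPa were below both without it. Among transcription factors of the lineage, Spib stood at 70.1, 89.4, 20.3 and 54.6 CPM (-1.23 ± 0.23) and Bcl11a at 60.7, 96.9, 21.3 and 56.4 CPM (-1.12 ± 0.16). Runx2, which other leukocytes also express, overlapped between the groups at 178, 232, 123 and 183 CPM (-0.43 ± 0.09). Bst2, also an interferon target, stood at 160, 153, 124 and 119 CPM (-0.36 ± 0.09).

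Enpp2 differed in sign from the rest of the 5 markers given for this comparison. This gene of autotaxin, the enzyme that makes lysophosphatidic acid, stood at 24.1, 9.64, 57.6 and 18.6 CPM and at 460 CPM in the untreated library. Its log2 fold change was 1.12 ± 0.14 (edgeR adjusted p = 0.114, DESeq2 adjusted p = 0.00027), opposite in sign to Siglech, and the groups overlapped. Enpp2 thus had its lowest irradiated level where Siglech had its highest, and is treated below beside the fibroblast genes. Of the other list members, Cobll1 was higher without overlap (59.9, 58.4, 71.7 and 75.0 CPM).

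In the lymphoid precursor list, some of whose genes plasmacytoid cells share, 10 of 14 genes were tested, with a median of -0.59, 5 lower without overlap, 1 higher and 4 overlapping. The pair medians were -0.78 without anti-PD-1 and -0.39 with it. Il7r, the interleukin 7 receptor, stood at 73.4, 97.0, 32.9 and 67.1 CPM (-0.83 ± 0.15). Flt3, the growth factor receptor on which dendritic cells depend, stood at 185, 254, 80.1 and 184 CPM (-0.82 ± 0.16), so its highest value with anti-SIRPa lay just below its lowest without. Fcrla, an intracellular Fc receptor-like protein of B cells and plasmacytoid cells, stood at 37.6, 49.8, 10.5 and 24.9 CPM (-1.39 ± 0.20), while Cd79a, a B cell receptor component, stood at or under 0.56 CPM in the 4 libraries.

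The 3 lists of other dendritic cells also had negative medians. The cDC1 list, of cells specialised in cross-presentation, had a median of -0.74 over 16 genes, with 9 lower without overlap and none higher. Xcr1, the chemokine receptor that defines cDC1, stood at 70.4 and 75.5 CPM without anti-SIRPa and at 29.9 and 65.3 CPM with it (-0.70 ± 0.22). Naaa, an acid amidase, stood at 365, 413, 121 and 331 CPM (-0.94 ± 0.26). Irf8, the factor on which cDC1 and plasmacytoid cells depend, stood at 1425, 1683, 1154 and 1413 CPM (-0.27 ± 0.07). In each of these the library with both antibodies was close to RT alone, and RT with anti-SIRPa was the low library. The cDC1 median was -1.20 for RT with anti-SIRPa over RT and -0.25 for both antibodies over RT with anti-PD-1.

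Clec10a, a lectin of cDC2, stood at 47.6, 55.8, 12.5 and 31.2 CPM (-1.36 ± 0.24, edgeR adjusted p = 0.131, DESeq2 adjusted p = 3.17e-05). It led a cDC2 list of 10 tested genes with a median of -0.76, of which 8 lay lower without overlap. Mgl2, its close relative, stood at 41.8, 37.9, 10.2 and 27.5 CPM (-1.22 ± 0.34). The mature dendritic cell list had a median of -0.61 over 16 genes, with 10 lower without overlap. Ccr7, the receptor that guides dendritic cells to lymph nodes, stood at 271, 322, 119 and 226 CPM (-0.84 ± 0.15). Socs2, a feedback inhibitor of cytokine signals, stood at 45.1, 58.7, 20.4 and 40.1 CPM (-0.83 ± 0.15). The cDC2 median was -1.26 in the pair without anti-PD-1 and -0.33 in the pair with it, and the mature median -0.76 and -0.33. Cd63, a vesicle protein on that list that many cells express, had the opposite sign (0.37 ± 0.09) and overlapped.

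MHC class II presentation was a list in which every member lay lower. All 12 genes were lower without overlap, and their median was -0.92. H2-Ab1, a class II beta chain, stood at 1272 and 1431 CPM without anti-SIRPa and at 455 and 1074 CPM with it (-0.94 ± 0.22, edgeR adjusted p = 0.181, DESeq2 adjusted p = 0.554). Cd74, the invariant chain that guards the class II groove, stood at 3046, 3523, 1191 and 2474 CPM (-0.92 ± 0.17). Ciita, the transactivator of class II genes, stood at 194, 240, 69.7 and 160 CPM (-1.02 ± 0.19). H2-DMb2, a chain of the peptide exchanger, stood at 80.6, 77.4, 25.4 and 58.4 CPM (-1.02 ± 0.26). The gap was carried mostly by RT with anti-SIRPa: the list median was -1.38 for RT with anti-SIRPa over RT and -0.45 for both antibodies over RT with anti-PD-1.

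The promoter window of H2-Eb1, a class II beta chain at 1170, 1379, 428 and 989 CPM, is shown because class II promoters are known to hold a Y box, an inverted CCAAT letter run. Its 2 matches to CCAAT or the reverse complement ATTGG are in capitals (RefSeq, GRCm38.p6, plus strand).
H2-Eb1, chr17:34305617-34305916: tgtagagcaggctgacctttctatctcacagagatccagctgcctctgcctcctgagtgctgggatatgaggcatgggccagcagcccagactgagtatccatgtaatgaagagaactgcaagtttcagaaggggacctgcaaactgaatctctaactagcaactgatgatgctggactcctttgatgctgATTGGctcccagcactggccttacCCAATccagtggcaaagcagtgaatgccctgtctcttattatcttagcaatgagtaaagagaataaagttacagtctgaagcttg
These letters were found in 8 of the 9 class II list genes with a window, in 37.4% of all windows and in 41.1% of all genes with a window, and did not overlap each other. No value here bears on binding.

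MHC class I genes had smaller values. Their median was -0.14 over 14 genes, with 7 lower without overlap and 1 higher.

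Nucleic acid sensing through TLR7 and TLR9, the route by which plasmacytoid cells respond to RNA and DNA, had a median of -0.31 over 16 genes, with 9 lower without overlap and 1 higher (pair medians -0.40 without anti-PD-1 and -0.16 with it). Tlr7 stood at 68.3, 69.8, 22.5 and 49.1 CPM (-1.04 ± 0.23) and Tlr9 at 120, 123, 47.6 and 88.9 CPM (-0.89 ± 0.19). Unc93b1, the chaperone that carries these receptors to endosomes, stood at 243, 257, 128 and 176 CPM (-0.73 ± 0.10). Pld4, an endosomal nuclease, stood at 248, 287, 91.0 and 186 CPM (-1.02 ± 0.18). The receptors and their chaperone were low in both anti-SIRPa libraries, whereas signalling proteins shared with other Toll-like receptors had smaller values, -0.30 ± 0.09 for Myd88 and -0.00 ± 0.09 for Irak1.

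Type I interferon response genes did not share this difference. Their median was -0.03 over 30 genes, with 5 lower and 1 higher without overlap. Irf7, the master factor of that response, stood at 423, 360, 270 and 346 CPM (-0.34 ± 0.13). The medians for the pairs were -0.21 without anti-PD-1 and 0.15 with it. Of the 30 genes 18 were negative in the pair without anti-PD-1 and positive in the other, against 17.0% of all genes tested. Of the interferon genes themselves, Ifna1, Ifna2 and Ifna4 had at most 6 counts in any CD11c+CD11b- library and Ifnb1 at most 11.

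Costimulatory and checkpoint ligands had a median of -0.43 over 15 genes, with 7 lower without overlap and none higher (pair medians -0.57 without anti-PD-1 and -0.15 with it). Cd83, a maturation marker, stood at 179, 186, 77.8 and 156 CPM (-0.72 ± 0.20), and Cd40 at 37.0, 34.5, 13.1 and 31.7 CPM (-0.79 ± 0.29). Cd86 overlapped between the groups at 97.8, 123, 43.9 and 106 CPM (-0.67 ± 0.20). Cd274, the gene of the PD-1 ligand PD-L1, stood at 211, 262, 134 and 224 CPM and overlapped (-0.43 ± 0.11, edgeR adjusted p = 0.196). Pdcd1, the gene of PD-1, stood at 14.8, 17.7, 14.0 and 20.6 CPM. In the list of cytokines of antigen-presenting cells, 9 of 16 genes lay lower without overlap (median -0.41), led at 10 CPM or more by Il1b at 114, 128, 51.1 and 79.2 CPM (-0.92 ± 0.12) and Il12b at 124, 130, 50.8 and 108 CPM (-0.77 ± 0.22).

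Sirpa itself, the target of the antibody, stood at 159 and 121 CPM without anti-SIRPa and at 84.3 and 99.1 CPM with it, against 96.6 CPM in the untreated library. The groups did not overlap, and the log2 fold change was -0.59 ± 0.14 (edgeR adjusted p = 0.187, DESeq2 adjusted p = 0.0273). An antibody acts on the protein, so this transcript level is no check of blockade. Cd47, the ligand, stood at 667, 660, 606 and 683 CPM (-0.03 ± 0.08). Over the 17 genes of the SIRPa and CD47 list the median was -0.19, with 6 lower without overlap and none higher. Ptpn6, the phosphatase SHP-1, stood at 273, 283, 206 and 225 CPM (-0.36 ± 0.08), and Ptpn11, the phosphatase SHP-2, at 153, 137, 160 and 140 CPM (0.06 ± 0.09). Pirb and Siglecg, inhibitory receptors of myeloid cells and of B and dendritic cells, had the lowest values of the list, -0.94 ± 0.22 and -0.96 ± 0.19.

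**Figure D2:**
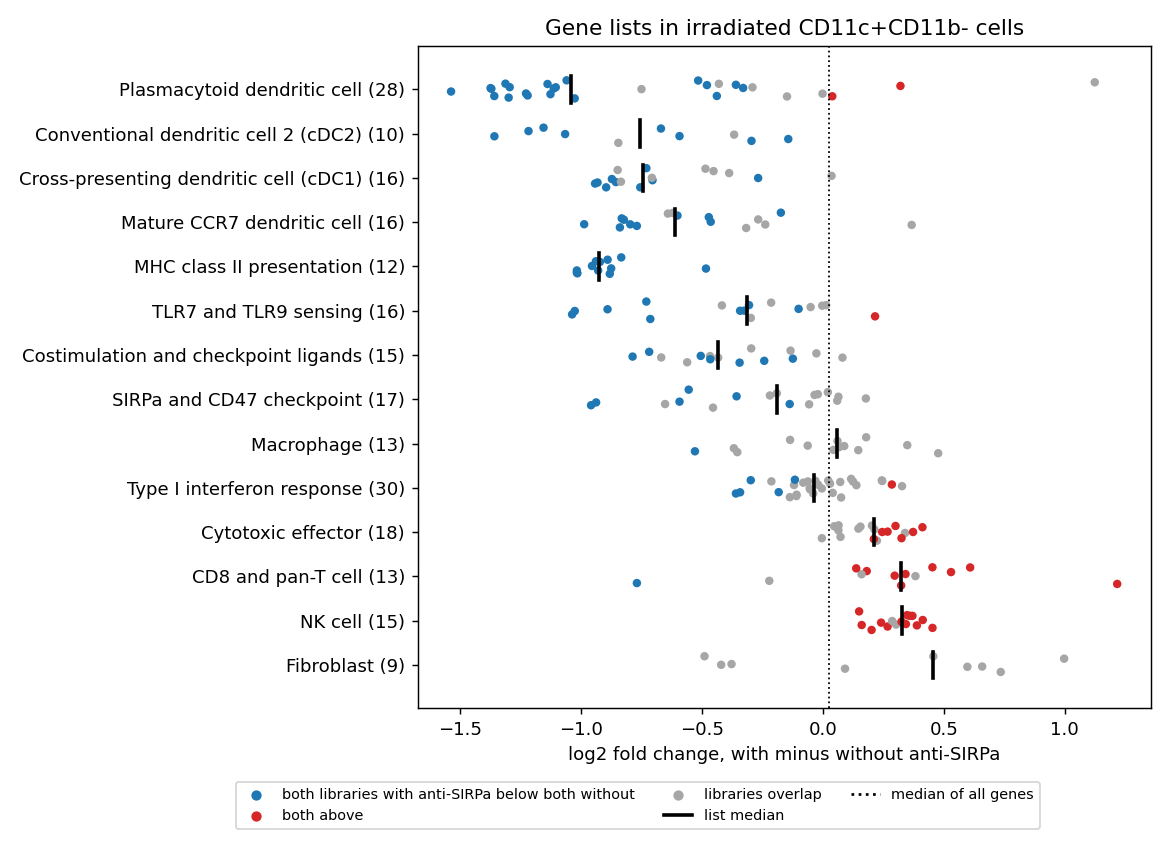
Log2 fold change with minus without anti-SIRPa (horizontal axis) of each gene tested in 14 lists (number of genes in brackets), coloured by whether the 2 libraries with and the 2 without overlap; bars are list medians and the dotted line the median of all genes, 0.03. The plasmacytoid median was -1.04 and the MHC class II median -0.92, while NK cell genes had a median of 0.33.

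NK cell genes had values of the opposite sign. Of 15 list members 13 lay higher without overlap and none lower, with a median of 0.33. Klre1, a lectin-like NK receptor, stood at 74.6 and 66.8 CPM without anti-SIRPa and at 100 and 91.9 CPM with it (0.45 ± 0.09, edgeR adjusted p = 0.152, DESeq2 adjusted p = 0.114). Klra8, a receptor of the Ly49 family, stood at 104, 96.9, 126 and 139 CPM (0.41 ± 0.09), although near-identical relatives make counts of that family uncertain. Ncr1, which defines NK cells, stood at 269, 240, 299 and 281 CPM (0.20 ± 0.08). Klre1 had the largest value of the list, and no member passed in edgeR or in DESeq2.

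The cytotoxic effector list had a median of 0.21 over 18 genes, with 7 higher without overlap and none lower. Gzmb, granzyme B, stood at 2102, 1756, 2838 and 2052 CPM and overlapped (0.34 ± 0.09). Ifng, the gene of interferon gamma, stood at 84.5, 70.4, 107 and 91.4 CPM (0.37 ± 0.09), and Fasl, a death ligand, at 39.4, 44.6, 58.6 and 52.2 CPM (0.41 ± 0.13). Among T cell genes 9 of 13 lay higher without overlap (median 0.32), though many were near 10 CPM or below. Cd8b1 went the other way at 33.8, 45.5, 19.2 and 27.2 CPM (-0.77 ± 0.11), while Cd8a, which cDC1 and plasmacytoid cells also carry in mice, overlapped at 27.4, 39.4, 28.5 and 27.6 CPM.

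These opposite directions stand beside one another in the same libraries. CPM are relative to the scaled total of a library, so the levels of different cell types are not independent measures. Plasmacytoid list sums were 2468 and 3010 CPM without anti-SIRPa and 1474 and 2155 CPM with it, and NK list sums 4733 and 4640 CPM against 5891 and 5120 CPM. What part the mix of cells had in the gene differences was not tested.

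Fibroblast genes were mixed. Their sum was 7062 CPM in the untreated library, 1097 and 506 CPM without anti-SIRPa, and 1886 and 565 CPM with it. Col3a1, a fibrillar collagen, stood at 567, 239, 1141 and 324 CPM against 4915 CPM untreated (0.74 ± 0.15, DESeq2 adjusted p = 0.000473). Pdgfra, a receptor of mesenchymal cells, stood at 74.9, 28.5, 122 and 42.9 CPM (0.66 ± 0.10). Col1a1, a collagen chain, had the other sign at 126.8, 75.2, 153.1 and 33.4 CPM (-0.42 ± 0.33), as did Col1a2 (-0.49 ± 0.32) and Postn, the gene of periostin (-0.38 ± 0.32). These 3 were higher with anti-SIRPa in the pair without anti-PD-1 and lower in the pair with it. No gene of the 9 tested was free of overlap between the groups, and the list median, 0.46, was 0.43 in the pair without anti-PD-1 and 0.35 in the pair with it. Enpp2 and Fn1, the gene of fibronectin at 1028, 375, 1463 and 675 CPM (0.69 ± 0.09), had the order of libraries of Col3a1. Whether collagen and Enpp2 RNA came with other cells through the sort was not tested.

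Macrophage genes differed in sign between the pairs. Over 13 genes the median was -0.29 for RT with anti-SIRPa over RT and 0.42 for both antibodies over RT with anti-PD-1. Of the 13, 10 were negative in the first and positive in the second, against 17.0% of all genes tested. The same switch was seen in 18 of 30 type I interferon response genes, 8 of 13 complement genes and 4 of 7 Fc receptor genes. The complement and Fc receptor lists share genes with the macrophage list. C1qa, a complement component of macrophages, stood at 115, 46.4, 96.5 and 67.5 CPM, and Csf1r, their growth factor receptor, at 118, 60.3, 70.6 and 60.9 CPM. The low value in RT with anti-PD-1 recurred across the macrophage list, whose sum was 1201, 572, 902 and 718 CPM. With 1 library per cell of the layout the interaction of the antibodies has no residual degree of freedom, so it was not tested.

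**Figure D3:**
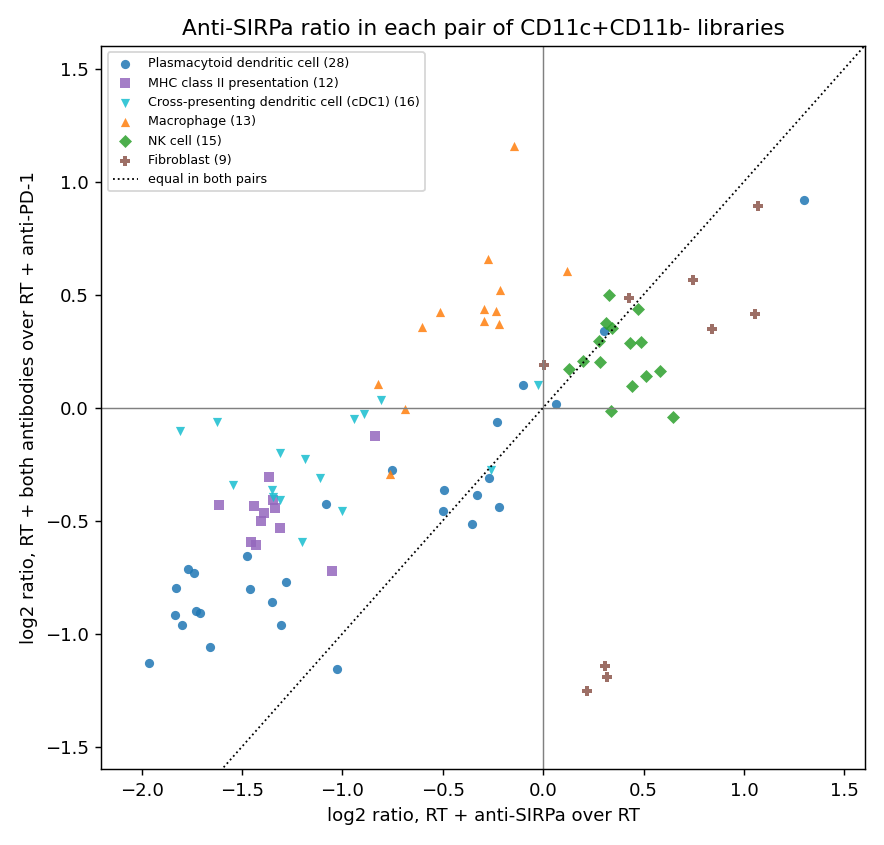
Log2 ratio of RT with anti-SIRPa over RT (horizontal axis) against that of both antibodies over RT with anti-PD-1 (vertical axis), 1 point per gene of 6 lists, with the dotted line marking equal ratios. Most plasmacytoid and MHC class II genes were negative in both pairs and farther from 0 without anti-PD-1 (medians -1.18 against -0.69, and -1.38 against -0.45), and macrophage genes were mostly negative in the first pair and positive in the second.

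The ratio was thus given for each pair. Of the 28 plasmacytoid genes 24 were negative in both pairs and 3 positive in both, where 26.4% of all genes tested were negative and 33.3% positive in both. For NK genes the medians were 0.34 and 0.21. The 2 ratios share no library, but each has 1 library on either side and no error of its own. The anti-PD-1 coefficient of the same fit had a median of 0.62 over the plasmacytoid list and 0.70 over the class II list.

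Several broader groups had small values. Mitochondrially encoded genes lay higher without overlap in 10 of 13 cases (median 0.35), for example mt-Cytb at 1140, 869, 1504 and 1237 CPM (0.47 ± 0.07). Lysosomal genes lay lower in 11 of 20 and higher in 1 (median -0.26), led at 10 CPM or more by Ctsh, a cathepsin, at 198, 212, 82.7 and 148 CPM (-0.87 ± 0.16) and Psap, prosaposin, at 2597, 2967, 1335 and 2154 CPM (-0.70 ± 0.11). Immediate early and heat shock genes lay lower in 11 of 19 and higher in none (median -0.20). Hspa1a stood at 127, 75.7, 73.8 and 42.5 CPM (-0.80 ± 0.09), but its near-identical copy Hspa1b makes its count uncertain. Proliferation genes had a median of 0.15 with 1 of 25 higher without overlap, and the interferon gamma response a median of 0.05.

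By size alone, the 10 lowest genes with no overlap included Siglech, Dntt, Pacsin1, Pltp and Fcrla, described above. Kif1b, a kinesin motor, had the smallest p among the 10, at 68.0 and 91.1 CPM without anti-SIRPa and 28.0 and 30.5 CPM with it (-1.42 ± 0.12, edgeR adjusted p = 0.0982, DESeq2 adjusted p = 1.27e-10). Unlike the dendritic cell genes it was about as low with both antibodies as with anti-SIRPa alone, and its untreated level was 109 CPM. In CD11c+CD11b+ cells Kif1b stood at 30.4, 83.7, 87.1 and 33.2 CPM, a switch that did not follow anti-SIRPa. In CD8 T cells it was higher with anti-SIRPa, at 38.4, 31.5, 74.4 and 65.6 CPM. The irradiated CD11c-CD11b+ libraries had 31.3 to 38.5 CPM. What made this gene switch was not tested. Gapt, an adaptor of B and myeloid cells, stood at 15.7, 17.6, 4.90 and 7.81 CPM (-1.41 ± 0.18). Trex1, a DNA exonuclease, stood at 45.1, 28.5, 5.82 and 17.4 CPM (-1.77 ± 0.48), but its locus overlaps Atrip on the same strand, which leaves its count uncertain. Ikzf4, a zinc finger factor, stood at 19.8, 23.8, 1.58 and 17.6 CPM (-1.77 ± 0.66). Kctd12 had 0 counts in RT with anti-SIRPa and in the untreated library and 284 to 349 CPM in the other 3, a switch that leaves its count uncertain.

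Of the 10 highest, Tlcd1, a membrane lipid regulator, stood at 6.71 and 6.09 CPM without anti-SIRPa and at 15.7 and 17.2 CPM with it (1.37 ± 0.16, edgeR adjusted p = 0.114). Clcn5, an endosomal chloride transporter, stood at 14.8, 17.2, 27.6 and 34.6 CPM (0.96 ± 0.12), and Rpl17, a ribosomal protein, at 69.5, 113, 167 and 184 CPM (0.99 ± 0.16). In these 3 both libraries with anti-SIRPa were high. Their levels in the untreated CD11c+CD11b- library were 14.8, 29.0 and 288.5 CPM. In irradiated CD8 T cells Tlcd1 overlapped between the groups at 18.3, 1.52, 9.24 and 13.4 CPM, as did Rpl17 at 62.6, 105.6, 56.6 and 74.7 CPM. Clcn5 was lower with anti-SIRPa there, at 32.1, 29.65, 11.5 and 28.2 CPM. Hist2h2aa1, a histone H2A gene, stood at 2.68, 0, 103 and 11.9 CPM (edgeR adjusted p = 0.0651). Its near-identical copy Hist2h2aa2 had 54.0 CPM after RT and 0 counts in the other 3, so reads may have been divided between the copies. Pde2a, Ei24, Hmgn2, Hnrnpa3, Mfsd4a and Paqr7 completed the 10, with log2 fold changes from 0.95 to 1.64 and edgeR adjusted p of 0.172 to 0.461. In Hmgn2, Mfsd4a and Paqr7 a single low library without anti-SIRPa made the difference.

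The genes most like Siglech in level over all 20 libraries were Klk1, Ptprf, Ly6d, D13Ertd608e and Dntt, with Pearson r of 0.976 to 0.987 on log2(CPM + 1). These correlations describe a level set by the sorted population, since Siglech stood at or under 6.81 CPM in each of the 15 libraries of other populations. The library labelled untreated CD8 T stood apart from the other CD8 T libraries, with 1716 CPM of Itgam against 159 to 292 CPM, and entered here in the scaling, that correlation and the fit of 20 libraries. Without it the 5 correlations were 0.98 to 0.991, and the edgeR fit of the other 19 libraries called 0 genes, 2145 having an unadjusted p under 0.05. Ly6d, a surface protein of B and plasmacytoid precursors, stood at 27.3, 35.0, 9.46 and 22.5 CPM (-1.06 ± 0.21).

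Whether the anti-SIRPa difference was particular to this fraction was tested against the other myeloid fractions of the same pools, with the pool as a block. These fits of 8 libraries also had 1 residual degree of freedom. In simulated data the fit against CD11c+CD11b+ cells called 19 unchanged genes beside those changed. Against CD11c+CD11b+ cells 19 of 20417 genes differed at an edgeR adjusted p under 0.05 (0.0931%). Pltp was the plasmacytoid list member among them. In CD11c+CD11b+ cells it stood at 92.4, 91.6, 90.7 and 116 CPM, so the low values were those of the CD11c+CD11b- fraction, and the log2 difference was -1.50 ± 0.13 (edgeR adjusted p = 0.0283). Blnk, a B cell receptor adaptor that plasmacytoid cells also express, stood at 28.7, 42.5, 9.98 and 23.1 CPM here against 35.9, 23.7, 40.9 and 34.0 CPM there (-1.53 ± 0.15, edgeR adjusted p = 0.0453). Sema4b, a semaphorin, stood at 74.2, 79.5, 35.9 and 51.6 CPM here against 35.4, 24.1, 48.9 and 35.6 CPM there (-1.33 ± 0.14, edgeR adjusted p = 0.0499).

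For Ago1, an Argonaute protein, the difference of -1.74 ± 0.18 (edgeR adjusted p = 0.0498) arose on both sides, since it stood at 30.4, 56.7, 24.2 and 28.8 CPM here and at 14.5, 17.6, 30.5 and 38.7 CPM in CD11c+CD11b+ cells. Fads2, a fatty acid desaturase, had -1.51 ± 0.14 (edgeR adjusted p = 0.042), from 32.3, 31.8, 39.0 and 19.1 CPM here and 11.9, 4.68, 40.2 and 8.45 CPM there. Hist2h2aa1 had a difference of 8.48 ± 0.24 (edgeR adjusted p = 0.000226), with the doubt on its copies given above. The rest of the 19 were mostly predicted genes and genes with 0 counts in several libraries. Without the pool block no gene passed, 1486 having an unadjusted p under 0.05, and DESeq2 called 103, of which 13 were among the 19. Leaving out 1 pool, with the anti-PD-1 term of the difference dropped, left 0 to 2 genes.

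The list medians differed between the fractions as well, though no test was made of a list. For plasmacytoid genes they were -1.04 in CD11c+CD11b- cells, -0.14 in CD11c+CD11b+ cells (26 genes tested) and 0.05 in CD11c-CD11b+ cells (23 tested). Several of these genes were barely present in the irradiated libraries of the other 2 fractions, with Klk1 at most 0.71, Dntt at most 0.35 and Spib at most 4.19 CPM. Others were not, such as Tcf4 at 180 to 193 CPM in CD11c+CD11b+ cells. The medians there thus cannot show that a difference in these genes was absent. For MHC class II genes they were -0.92, -0.24 and -0.28, and for NK genes 0.33, -0.13 and -0.52. In CD11c+CD11b+ cells too, RT with anti-SIRPa was the lowest irradiated library for each class II list gene. Ciita stood there at 224, 237, 112 and 239 CPM and H2-Ab1 at 2053, 1944, 1413 and 2259 CPM. Ccr7 had the same low library there, at 92.7, 106, 32.2 and 116 CPM. The cDC2 median was about as low in CD11c+CD11b+ cells (-0.66) as here (-0.76), while the fibroblast medians were positive in all 3 fractions (0.46, 0.33 and 0.14). Siglech had a log2 fold change of -1.41 in CD11c+CD11b+ cells, where its level was at most 1.85 CPM, and the difference between the fractions did not pass (edgeR adjusted p = 0.96). Cd74 and Unc93b1 had edgeR adjusted p of 0.0623 and 0.0564 for that difference. Against CD11c-CD11b+ cells 2 of 20908 genes differed (0.00957%), both predicted genes, Gm26885 and Gm20716, named after their values were seen. DESeq2 called 18, and no gene passed without the pool block (1155 at an unadjusted p under 0.05).

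**Figure D4:**
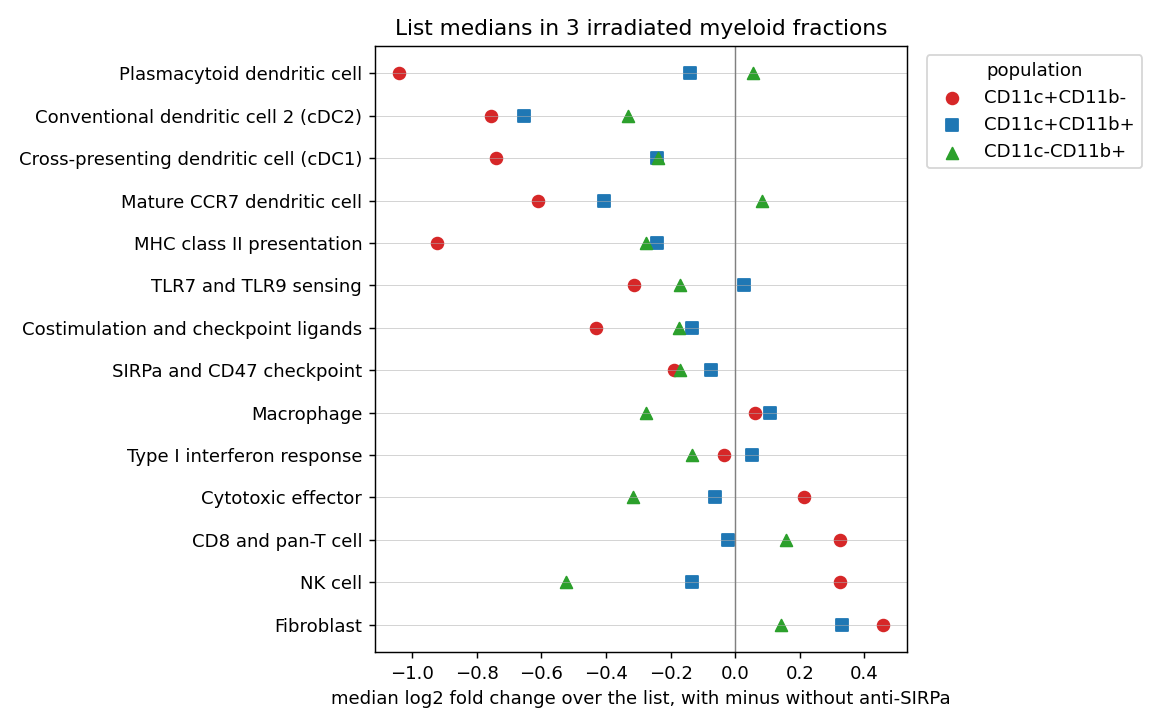
Median log2 fold change with minus without anti-SIRPa (horizontal axis) over each of 14 lists in the 3 irradiated myeloid fractions, 1 point per fraction. Plasmacytoid genes were at -1.04 in CD11c+CD11b- cells against -0.14 and 0.05 in the other fractions, and MHC class II genes at -0.92 against -0.24 and -0.28. Several plasmacytoid genes were barely present in the other fractions. In CD11c+CD11b+ cells RT with anti-SIRPa was also the lowest irradiated library for each class II gene.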

How the data were processed

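The authors deposited 1 matrix of estimated counts of transcripts, all whole numbers. Per the submitters' processing notes, FastQC 0.11.8, HISAT2, StringTie and edgeR 3.34.0 were used with GRCm38, and the sources used here state neither the strand setting nor the versions of HISAT2 and StringTie. Of 142699 transcripts, 141469 matched GENCODE M21 and were summed to 55260 genes. Raw reads were not used here.

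Genes were kept by filterByExpr (minimum count 10, minimum total 15), scaled by TMM and tested with edgeR 4.0.16 (R 4.3.3, limma 3.58.1) in a model of anti-PD-1 and anti-SIRPa over the 4 libraries. Differences between fractions used 8 libraries with the pool as a block, the fractions of a pool coming from the same tumours. P-values were adjusted over all genes tested. The SE was derived by dividing a log2 fold change, taken without sign, by the root of its F value. Ratios of single pairs used a prior count of 2. Alternatives were RLE scaling, no filter, DESeq2 1.42.0, other sets of libraries or terms, and each library or pool left out with the anti-PD-1 term dropped. Tables used Python 3.11.15 with pandas 2.3.3, and figures matplotlib 3.10.9.

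The members and the 44 gene lists were chosen with earlier results of these data known. Named genes were the 10 per direction with the largest log2 fold change among genes at 10 CPM or more in 2 libraries, with 1 direction in both pairs and no overlap, up to 4 per list, a fixed set around Sirpa and the markers, and up to 5 per direction in each difference. List members outside this rule were named after their values were seen. Predicted genes, pseudogenes and receptor segments were left out except where stated, and values of some list members are not reported here. The fits were tested on simulated data, with 100 genes changed 2-fold and 100 changed 4-fold in each. In the anti-SIRPa fit of 19130 genes, 5 unchanged genes were called. In the fit of the difference from CD11c+CD11b+ cells, of 20417 genes, 19 unchanged genes were called. Of the 2-fold changes 89 and 71 were recovered, and all 100 of the 4-fold changes in both. The simulated counts had 1 dispersion for all genes and no pool effect, and changed genes had a mean count over 100. These shares therefore do not give the recovery in the real libraries.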

Additional observations from a re-analysis of the deposited data

Results flagged for a closer look

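Against CD11c+CD11b+ cells the anti-SIRPa log2 fold change differed for 19 genes by the test of the difference itself. Those that could be named were Hist2h2aa1 (8.48), Ago1 (-1.74), Fads2 (-1.51), Blnk (-1.53), Pltp (-1.50) and Sema4b (-1.33), all as CD11c+CD11b- minus CD11c+CD11b+. Against CD11c-CD11b+ cells 2 genes differed, both predicted genes.

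The median over a list had opposite signs with and without anti-PD-1 in 14 of the 44 lists. In 3 of those with at least 5 genes tested both medians were 0.2 or more from 0, and this difference was not tested. Macrophage genes had -0.29 for RT with anti-SIRPa over RT and 0.42 for both antibodies over RT with anti-PD-1. Inflammatory monocyte genes had -0.48 and 0.22, although only 2 of the 9 members themselves differed in sign between the pairs. Vcan, higher with anti-SIRPa in both pairs, stood at 79.9, 31.8, 128 and 60.0 CPM, and Ly6i, lower in both, at 11.6, 12.0, 5.93 and 5.59 CPM in the order RT, RT with anti-PD-1, RT with anti-SIRPa, both. Red cell and platelet genes had 1.23 and -0.34.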

How the results depend on the processing

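Under the alternatives to the 1 gene passed by edgeR, 1 passed with RLE scaling, 0 without a filter on low counts, with the anti-PD-1 term dropped, with the 20 libraries in 1 fit or, as chosen after seeing the data, with the untreated CD8 T library left out of that fit, 3 with the untreated library added, and 276 with DESeq2. Leaving out 1 of the 4 libraries, which also dropped the anti-PD-1 term so that 1 residual degree of freedom remained, gave 2 to 4 genes. For the difference from CD11c+CD11b+ cells the count of 19 became 11 with RLE scaling, 0 without a filter, 0 without the pool block and 103 with DESeq2, and 0 to 2 with a pool and the anti-PD-1 term of the difference left out. For the difference from CD11c-CD11b+ cells the count of 2 became 3 with RLE scaling, 0 without a filter, 0 without the pool block, 18 with DESeq2 and 0 to 0 with a pool left out in the same way. The cause of these shifts was not tested. The pool block pairs the fractions of a pool. Within CD11c+CD11b- cells each pool gave 1 library, so no block could be fitted.

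Of 99 named genes, 16 changed sign under at least 1 of the 11 alternatives, each time with a library left out and the anti-PD-1 term dropped. These fits change both at once, so the sign change cannot be put down to the library alone: for C1qa, Col3a1, Fn1 and Pdgfra, both antibodies stood above RT with anti-PD-1. Over these fits their log2 values ran: C1qa -0.494 to 0.799, Cd47 -0.146 to 0.05, Cd63 -0.095 to 0.797, Cd8a -0.517 to 0.031, Col1a1 -1.58 to 0.588, Col1a2 -1.6 to 0.463, Col3a1 -0.293 to 1.59, Csf1r -0.839 to 0.101, Fads2 -0.737 to 0.269, Fn1 -0.031 to 1.49, Irak1 -0.077 to 0.026, Itgam -0.739 to 0.269, Pdcd1 -0.233 to 0.349, Pdgfra -0.246 to 1.5, Postn -1.56 to 0.598, Ptpn11 -0.038 to 0.127. Of the 44 list medians 27 kept their sign under all 11. The plasmacytoid median ran from -1.46 to -0.47, MHC class II from -1.57 to -0.35 and NK cell from 0.19 to 0.36, while fibroblast ran from -0.38 to 1.013 and macrophage from -0.53 to 0.60. Depth, at least 22475552 counts, was not varied.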
